A study of Homo sapiens with 12 samples.

Results

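The 9 genes described here encode enzymes that make, release or inactivate estrogens: HSD17B1, HSD17B2, HSD17B4, HSD17B8, HSD17B12, STS, SULT1A1, SULT2B1 and CYP1B1. They were chosen by gene symbol from the 27864 genes of a read count table, with earlier results of these data known. Each symbol matched 1 row. Messenger RNA was sequenced in T47D cells, an established luminal, estrogen receptor-positive breast cancer line that carries an activating PIK3CA mutation. The series asks how loss of NF1, which encodes the RAS inhibitor neurofibromin, alters the response to BYL719, the PI3K alpha-selective drug alpelisib. NF1 knockout cells (NF1KO) and control cells (CTRL) each received 3 µM BYL719 or the vehicle DMSO for 48 h. The table gave 3 libraries of NF1KO cells in BYL719, 2 of NF1KO cells in DMSO, 3 of CTRL cells in BYL719 and 3 of CTRL cells in DMSO. Replicate 1 of NF1KO cells in DMSO was not analysed here. Whether the knockout line is a single clone, and what the CTRL line received in its place, is not given in the sources used here, so a difference between the lines cannot be assigned to NF1 alone. Nothing in the labels says that replicates came from separate cultures, and p-values then measure only the spread between these libraries.

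Estradiol is the most potent natural estrogen, and cells of the breast can form it locally from circulating precursors. Steroid sulfatase releases estrone from its sulfate, reductive hydroxysteroid dehydrogenases turn estrone into estradiol, and oxidative members of the same family run the step backwards. Sulfotransferases return the steroid to a water-soluble sulfate that does not bind the receptor, and the cytochrome P450 enzyme CYP1B1 hydroxylates the estrogen ring to catechol estrogens. Several members also have other substrates, fatty acyl chains in particular, so that a transcript level is not a measure of estrogen conversion.

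Promoter sequences show where the transcription starts of these genes lie and which short motifs surround them. RefSeq promoters (GRCh38.p14, 250 bases before to 50 after a start) were at hand for 4 of the 9 genes, HSD17B4, HSD17B8, SULT2B1 and STS, with 8 starts among them, 5 of them for STS. The core of the aryl hydrocarbon receptor element (GCGTG) and the GC box (GGGCGG) are in capitals on either strand. Of the 5 STS starts 2 are shown, because that gene had the widest gap between the lines, and those of HSD17B4 and SULT2B1 because both genes were lower in BYL719 in both lines. All 4 stretches are on the plus strand: STS start 2 at chrX:7147462-7147761, STS start 3 at chrX:7219206-7219505, HSD17B4 at chr5:119452247-119452546 and SULT2B1 at chr19:48551922-48552221.
STS start 2: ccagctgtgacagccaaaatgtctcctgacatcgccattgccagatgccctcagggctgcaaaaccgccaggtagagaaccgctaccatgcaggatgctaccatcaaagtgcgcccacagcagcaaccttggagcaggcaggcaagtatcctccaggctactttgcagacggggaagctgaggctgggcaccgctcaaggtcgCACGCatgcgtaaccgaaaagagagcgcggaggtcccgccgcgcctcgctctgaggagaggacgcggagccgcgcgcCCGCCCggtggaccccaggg
STS start 3: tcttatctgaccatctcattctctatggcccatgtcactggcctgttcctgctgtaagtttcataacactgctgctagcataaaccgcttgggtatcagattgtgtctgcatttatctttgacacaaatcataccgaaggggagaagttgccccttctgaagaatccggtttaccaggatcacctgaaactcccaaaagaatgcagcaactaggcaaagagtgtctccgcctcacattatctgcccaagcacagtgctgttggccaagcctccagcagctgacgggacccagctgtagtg
HSD17B4: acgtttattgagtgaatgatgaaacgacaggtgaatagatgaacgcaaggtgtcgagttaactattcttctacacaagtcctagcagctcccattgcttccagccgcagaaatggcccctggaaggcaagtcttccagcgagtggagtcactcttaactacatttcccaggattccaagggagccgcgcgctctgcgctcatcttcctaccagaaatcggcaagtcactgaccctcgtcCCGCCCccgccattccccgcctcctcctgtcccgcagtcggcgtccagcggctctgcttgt
SULT2B1: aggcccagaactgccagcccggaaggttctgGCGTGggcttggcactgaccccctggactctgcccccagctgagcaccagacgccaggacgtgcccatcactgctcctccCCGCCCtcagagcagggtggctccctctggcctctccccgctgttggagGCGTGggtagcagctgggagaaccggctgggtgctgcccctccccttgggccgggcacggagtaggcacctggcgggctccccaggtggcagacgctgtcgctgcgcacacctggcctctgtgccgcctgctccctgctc

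Start 2 of STS held 1 aryl hydrocarbon receptor core, 47 bases before the start, and 1 GC box after it, whereas start 3 held neither motif. Start 3 was the only STS start for which a short stretch just after the start was found within a GENCODE transcript of STS. That stretch could lie anywhere in the transcript, so a transcript beginning at start 3 was not tested. The HSD17B4 promoter held 1 GC box, 11 bases before its start, and the SULT2B1 promoter held 2 aryl hydrocarbon receptor cores and 1 GC box. Of the promoters not shown, that of HSD17B8 also held 2 cores and 1 GC box, and start 1 of STS held 1 core. Such matches were common: 36.5% of the 35116 RefSeq promoters held the core and 45.0% the GC box. None of the 8 promoters held the letters of an AP-1 site (TGACTCA, in 4.95% of all promoters), a cyclic AMP response element (TGACGTCA, 1.85%), an E-box (CACGTG, 7.26%), a FOXO site (GTAAACA, 3.42%), an ETS site (CCGGAAGT, 4.14%) or the palindromic estrogen response element (0.057%). The CCAAT box of NF-Y, in 34.6% of all promoters, was found at 2 places in that of HSD17B8 and once in start 1 of STS. Gene counts do not show which start was used.

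Library totals ran from 53283945 to 60148876 counted reads. NF1 itself was at 0.891, 0.547 and 0.400 CPM (read count relative to the TMM-scaled library total) in NF1KO cells in BYL719 and at 0.480 and 0.471 CPM in NF1KO cells in DMSO, against 214, 147 and 152 CPM in CTRL cells in BYL719 and 289, 209 and 250 CPM in CTRL cells in DMSO. The labels and the target gene therefore matched in all 11 libraries. All 8 luminal markers were at 1 CPM or more in every group, while the markers of endothelial, immune, adipocyte and basal cells summed to at most 2.75 CPM in any library. Summed fibroblast markers were at 16.8 to 21.3 CPM in NF1KO cells in BYL719, 25.9 CPM in both NF1KO libraries in DMSO, 27.3 to 35.6 CPM in CTRL cells in BYL719 and 49.7 to 55.4 CPM in CTRL cells in DMSO. That sum was almost wholly COL1A1, with the other 4 markers under 1 CPM, and its part in the results was not tested. In bulk RNA, fewer cells of a type and less RNA per cell cannot be told apart.

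Of the 9 enzymes, 8 passed the filter on low counts and HSD17B2 did not. In DMSO, 4 of the 8 tested enzymes were higher in NF1KO than in CTRL cells at an adjusted p under 0.05 (edgeR quasi-likelihood test, Benjamini-Hochberg over 16081 genes), and the other 4 did not pass. Of all tested genes 9.99% were higher and 10.3% lower (20.3% in either direction). In BYL719, 3 enzymes were higher and 1 was lower in NF1KO than in CTRL cells, against 20.8% and 19.0% of all tested genes (39.8% in either direction). BYL719 left 1 enzyme higher and 5 lower than DMSO in CTRL cells, where 22.6% of all tested genes were higher and 21.8% lower (44.4% in either direction). In NF1KO cells, 6 enzymes were lower in BYL719 than in DMSO, against 8.47% of all tested genes (10.3% were higher, 18.7% in either direction). The BYL719 effect differed between the lines for 1 enzyme, HSD17B1, with the lower effect in NF1KO cells, against 3.71% of all tested genes with a lower and 5.68% with a higher effect (9.39% in either direction). The median log2 fold changes of the 8 enzymes, in the order of these 5 comparisons, were 0.37, 0.19, -0.43, -0.28 and 0.20, and those of all tested genes lay between -0.01 and 0.01. Comparisons that share a group of libraries are not independent of each other. Because the enzymes were chosen with earlier results of these data known, the shares of all tested genes do not test the set.

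**Figure D1:**
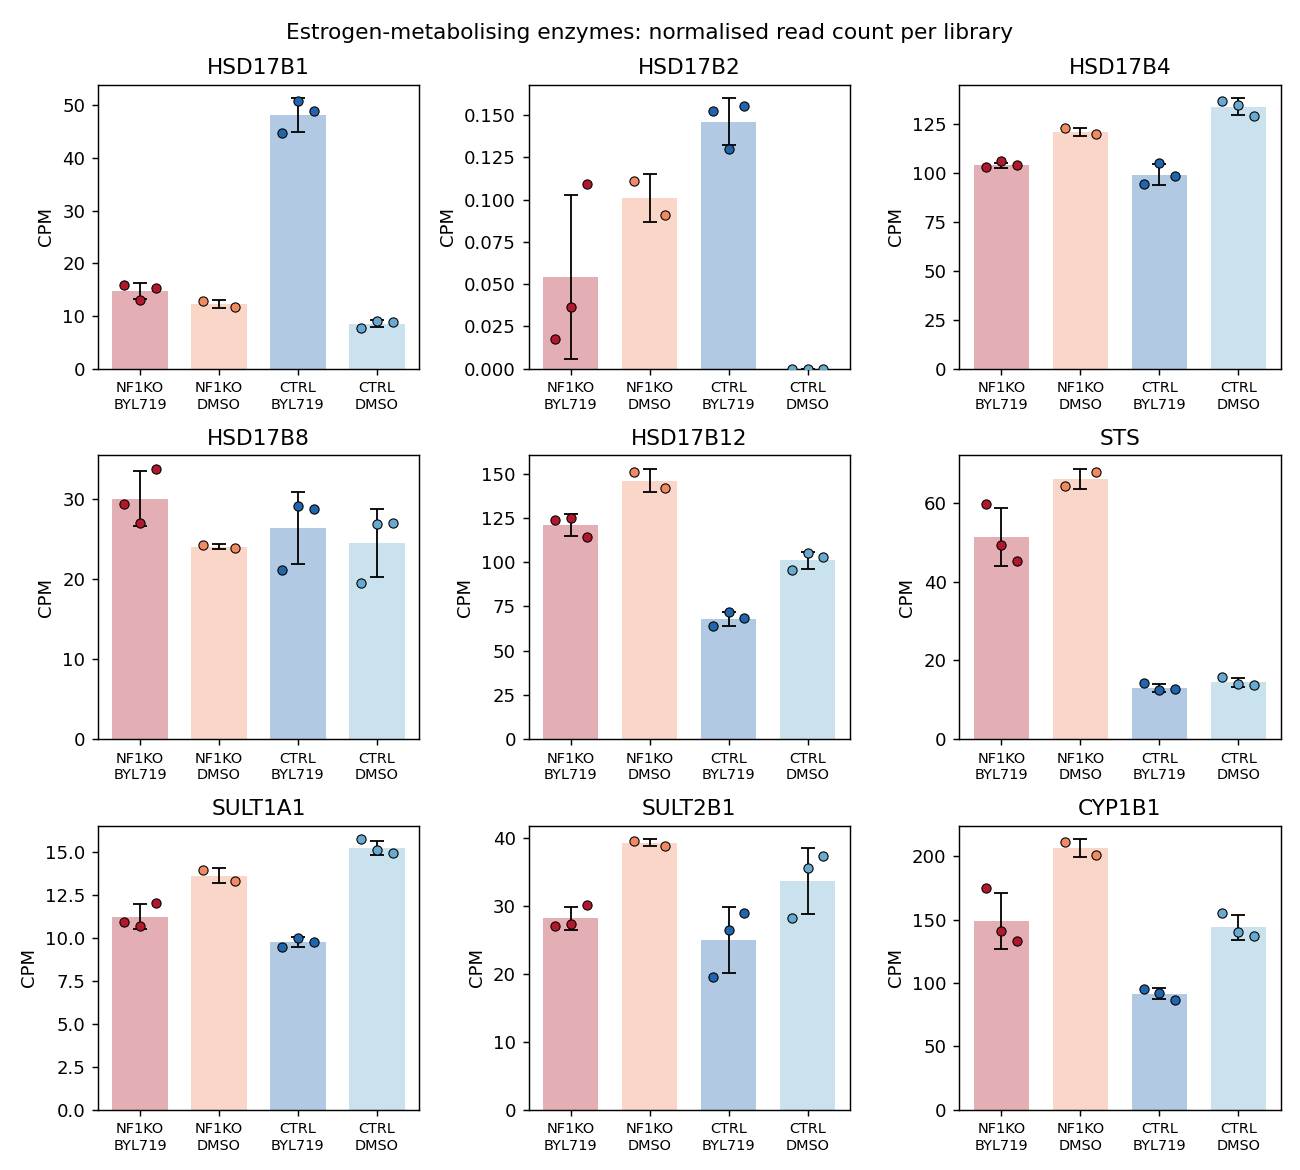
Normalised read count in CPM (vertical axis, from 0, on a scale of its own for each gene) of the 9 enzymes in the 4 groups; points are libraries, bars group means and whiskers 1 SD. STS stood between 45.3 and 67.8 CPM in the NF1KO libraries and between 12.5 and 15.8 CPM in the CTRL libraries, and HSD17B1 was highest in CTRL cells in BYL719, at 44.6 to 50.8 CPM.

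Levels of different genes were compared per kilobase of transcript. In NF1KO cells in DMSO, HSD17B12 led with 56.8 CPM per kilobase, followed by HSD17B4 with 48.5, CYP1B1 with 39.2, SULT2B1 with 28.7, HSD17B8 with 24.3, SULT1A1 with 10.6 and STS with 10.1 CPM per kilobase. In CTRL cells in DMSO the order began with HSD17B4 at 53.7 CPM per kilobase, then HSD17B12 at 39.3, CYP1B1 at 27.4, HSD17B8 at 24.7, SULT2B1 at 24.6, SULT1A1 at 11.9 and STS at 2.22 CPM per kilobase. The libraries of CYP1B1, HSD17B8 and SULT2B1 overlapped in CTRL cells in DMSO, and those of SULT1A1 and STS nearly met in NF1KO cells in DMSO, at no less than 10.4 CPM per kilobase for SULT1A1 and no more than 10.4 for STS. HSD17B1 was at 2.47 and 1.72 CPM per kilobase of its 4.98-kilobase GENCODE transcript in NF1KO and CTRL cells in DMSO. That transcript is longer than the whole RefSeq gene of 2.29 kilobases, a genomic span that includes any introns. Over that span the levels would be 5.37 and 3.73 CPM per kilobase, and over a shorter spliced transcript they would be higher. The rank of HSD17B1 against STS is therefore uncertain in both lines.

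Steroid sulfatase, the enzyme that releases estrone and dehydroepiandrosterone from their sulfates, showed the widest gap between the lines. STS (Entrez 412, chrX:7147290-7354641, plus strand) was at 64.3 and 67.8 CPM in NF1KO cells in DMSO, against 15.8, 14.0 and 13.7 CPM in CTRL cells in DMSO. No NF1KO library came near a CTRL library. Its expression was 4.55-fold higher in NF1KO than in CTRL cells in DMSO (log2 fold change 2.19 ± 0.11 SE, edgeR adjusted p = 7.63e-08). In BYL719, STS was at 59.6, 49.2 and 45.3 CPM in NF1KO cells and at 14.3, 12.5 and 12.7 CPM in CTRL cells, a 3.91-fold difference (log2 1.97 ± 0.11, edgeR adjusted p = 3.84e-08). The gap between the lines was thus present in both treatments.

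The BYL719 changes of STS were smaller than its gap between the lines. In NF1KO cells it was lower in BYL719 than in DMSO, with means of 51.4 ± 7.38 CPM (SD, n = 3) and 66.1 ± 2.51 CPM (SD, n = 2), a log2 fold change of -0.36 ± 0.11 (edgeR adjusted p = 0.0400). In CTRL cells the means were 13.1 ± 0.987 CPM in BYL719 and 14.5 ± 1.16 CPM in DMSO (SD, n = 3 each), and the log2 fold change of -0.14 ± 0.11 did not pass (edgeR adjusted p = 0.305). With replicate numbers as a block within each line, the same change in CTRL cells passed, at an edgeR adjusted p of 0.0412.

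PUDP, a pseudouridine phosphatase gene, overlaps the start of STS by 864 bases and had 135% of its counts on average. Reads of the shared stretch may have been counted for either gene, because the counting tool and its strand setting are not given in the sources used here. PUDP was at 60.0 and 61.0 CPM in NF1KO cells and at 35.4, 38.0 and 38.2 CPM in CTRL cells in DMSO, a log2 fold change of 0.70 ± 0.08 (edgeR adjusted p = 5.24e-05), and in BYL719 the difference was 0.60 ± 0.07 (edgeR adjusted p = 3.33e-05). With the counts of both genes summed, the line difference in DMSO was 1.29 ± 0.08 on the log2 scale (edgeR adjusted p = 3.35e-07). The next genes on either side with a mean of at least 1 CPM were VCX3A and VCX, 612172 and 487621 bases away from STS. They did not pass in DMSO, with log2 fold changes of 0.09 ± 0.13 and 0.14 ± 0.14 (edgeR adjusted p = 0.657 and 0.531). In BYL719 VCX was higher in NF1KO cells by 0.34 ± 0.13 (edgeR adjusted p = 0.0487).

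HSD17B1, the dehydrogenase that reduces estrone to estradiol, was the enzyme whose response to BYL719 differed between the lines. HSD17B1 (Entrez 3292, chr17:42552923-42555214, plus strand) was at 44.6, 50.8 and 48.9 CPM in CTRL cells in BYL719, against 7.76, 9.15 and 8.78 CPM in CTRL cells in DMSO. Every BYL719 library of CTRL cells was far above every DMSO library, and the difference was 5.62-fold (log2 2.49 ± 0.10, edgeR adjusted p = 1.82e-08). In NF1KO cells it was at 15.8, 13.0 and 15.3 CPM in BYL719, against 12.8 and 11.8 CPM in DMSO. These libraries did not overlap either, but the log2 fold change of 0.26 ± 0.11 did not pass (edgeR adjusted p = 0.111). The BYL719 effect in NF1KO minus that in CTRL cells was -2.23 ± 0.14 on the log2 scale (edgeR adjusted p = 1.24e-05).

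Between the lines, HSD17B1 therefore lay in opposite directions in the 2 treatments. In BYL719 it averaged 14.7 ± 1.48 CPM in NF1KO cells and 48.1 ± 3.14 CPM in CTRL cells (SD, n = 3 each), a log2 fold change of -1.71 ± 0.09 (edgeR adjusted p = 4.59e-08). In DMSO it averaged 12.3 ± 0.733 CPM in NF1KO cells (SD, n = 2) and 8.56 ± 0.717 CPM in CTRL cells (SD, n = 3), a log2 fold change of 0.52 ± 0.11 (edgeR adjusted p = 0.00439). The difference in DMSO no longer passed without replicate 2 of NF1KO cells in DMSO (edgeR adjusted p = 0.0618).

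A second annotated gene lies over HSD17B1. LOC108783654, which RefSeq names as an antisense gene of HSD17B1, shares 1880 bases with it and had 114% of its counts on average. It was at 21.9, 23.9 and 26.6 CPM in NF1KO cells in BYL719, 22.3 and 24.4 CPM in NF1KO cells in DMSO, 26.8, 33.0 and 32.4 CPM in CTRL cells in BYL719, and 17.9, 21.2 and 22.9 CPM in CTRL cells in DMSO. It followed the same order in CTRL cells at a smaller size, with a log2 fold change of 0.57 ± 0.11 in BYL719 over DMSO (edgeR adjusted p = 0.0013), and its difference of effects, -0.52 ± 0.17, did not pass (edgeR adjusted p = 0.0736). That difference did pass with the replicate block within each line (-0.46, edgeR adjusted p = 0.000233), with the block across lines (-0.44, 0.00633), without replicate 1 of CTRL cells in BYL719 (-0.61, 0.018), without both CTRL libraries numbered 1 (-0.52, 0.0126) and with DESeq2 (-0.54, 0.0278). The library kit preserves strand, but whether the counting used it is not given, so reads of the pair may be mixed.

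With the counts of HSD17B1 and LOC108783654 summed, the BYL719 change in CTRL cells was 1.43 ± 0.09 on the log2 scale (edgeR adjusted p = 2.44e-07) and the difference of effects was -1.31 ± 0.14 (edgeR adjusted p = 0.000104). Under the same sum NF1KO cells were lower than CTRL cells in BYL719 by a log2 fold change of -1.02 ± 0.09 (edgeR adjusted p = 2.63e-06), whereas the difference in DMSO, 0.28 ± 0.10, did not pass (edgeR adjusted p = 0.068). The neighbours to either side did not share the BYL719 pattern of CTRL cells. NAGLU, a lysosomal glucosaminidase gene, had a log2 fold change of 0.02 ± 0.08 and COASY, for coenzyme A synthase, one of -0.11 ± 0.11 in BYL719 over DMSO in CTRL cells, and neither passed (edgeR adjusted p = 0.862 and 0.430).

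**Figure D2:**
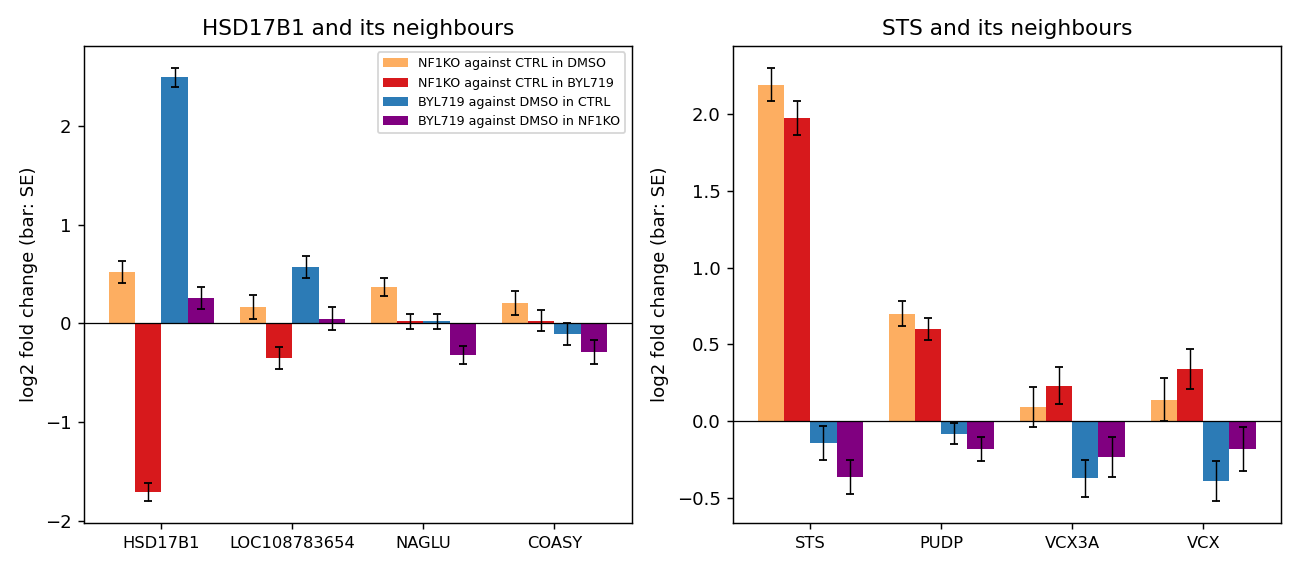
Log2 fold changes (vertical axis, with whiskers for SE) of HSD17B1 and STS in 4 comparisons given by colour. Also drawn are the genes that overlap them (LOC108783654 and PUDP) and the nearest genes on either side with a mean of at least 1 CPM. The 2.49 of HSD17B1 in BYL719 over DMSO in CTRL cells stands beside 0.57 for LOC108783654, and the 2.19 of STS between the lines in DMSO beside 0.70 for PUDP.

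HSD17B12 is an enzyme of the endoplasmic reticulum that elongates fatty acids and has been reported to reduce estrone. It was higher in NF1KO cells in both treatments and lower in BYL719 in both lines. HSD17B12 (Entrez 51144, chr11:43556721-43856615, plus strand) was at 124, 125 and 114 CPM in NF1KO cells in BYL719, 151 and 142 CPM in NF1KO cells in DMSO, 64.0, 72.0 and 68.2 CPM in CTRL cells in BYL719, and 95.6, 105 and 103 CPM in CTRL cells in DMSO. The 4 groups did not overlap in any of the comparisons. NF1KO cells exceeded CTRL cells 1.45-fold in DMSO (log2 0.53 ± 0.08, edgeR adjusted p = 0.000326) and 1.78-fold in BYL719 (log2 0.83 ± 0.07, edgeR adjusted p = 1.45e-06). BYL719 lowered it by a log2 fold change of -0.27 ± 0.08 in NF1KO cells (edgeR adjusted p = 0.0263) and of -0.57 ± 0.07 in CTRL cells (edgeR adjusted p = 3.68e-05). The difference between these effects, 0.30 ± 0.10, did not pass (edgeR adjusted p = 0.102). Of its neighbours, TTC17 was higher in BYL719 in CTRL cells, by 0.62 ± 0.08 on the log2 scale (edgeR adjusted p = 4.04e-05), and ALKBH3 passed in none of the comparisons.

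Oxidation of estradiol back to estrone is the step of HSD17B2, and this transcript was close to absent. HSD17B2 (Entrez 3294, chr16:82035253-82098534, plus strand) had 1, 2 and 6 reads in the NF1KO libraries in BYL719, 6 and 5 in those in DMSO, 9, 7 and 9 in the CTRL libraries in BYL719, and 0 in each of the 3 CTRL libraries in DMSO. Pooled over libraries, these were 0.0539 CPM (95% exact Poisson interval 0.0246 to 0.102), 0.101 CPM (0.0502 to 0.180), 0.146 CPM (0.0947 to 0.216) and 0 CPM, for which 3 counts over the group allow up to 0.018 CPM. The intervals cover counting error only. The pooled levels of CTRL cells in BYL719 and of NF1KO cells in DMSO were 8.15-fold and 5.60-fold the level of those 3 counts in CTRL cells in DMSO. These folds leave out the counting error of the pooled levels. The exact upper 95% limit for CTRL cells in DMSO, 0.0221 CPM, would make them smaller. In a fit without the filter on low counts, BYL719 against DMSO in CTRL cells had an edgeR adjusted p of 0.00112 and NF1KO against CTRL cells in DMSO one of 0.0128. All of this rests on at most 9 reads in a library.

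HSD17B4, a peroxisomal enzyme of fatty acid beta-oxidation that also oxidises estradiol, was among the most abundant of the set and was lower in BYL719. HSD17B4 (Entrez 3295, chr5:119452497-119542332, plus strand) was at 103, 106 and 104 CPM in NF1KO cells in BYL719 and 123 and 120 CPM in NF1KO cells in DMSO. In CTRL cells it was at 94.2, 105 and 98.3 CPM in BYL719, against 137, 135 and 129 CPM in DMSO. Treated and untreated libraries were separate in both lines, with log2 fold changes of -0.22 ± 0.07 in NF1KO cells (edgeR adjusted p = 0.0372) and -0.43 ± 0.06 in CTRL cells (edgeR adjusted p = 9.59e-05). The lines themselves did not differ by the test, in DMSO with -0.14 ± 0.07 (edgeR adjusted p = 0.150) and in BYL719 with 0.07 ± 0.06 (edgeR adjusted p = 0.353). TNFAIP8 was the nearest gene before HSD17B4 with a mean of at least 1 CPM, 52809 bases away. It was lower in BYL719 in CTRL cells by -0.93 ± 0.12 on the log2 scale (edgeR adjusted p = 5.1e-05). In NF1KO cells its BYL719 change was -0.02 ± 0.13 (edgeR adjusted p = 0.939).

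HSD17B8, a mitochondrial enzyme of fatty acid synthesis that can oxidise estradiol, did not pass in any of the 5 comparisons. HSD17B8 (Entrez 7923, chr6:33204655-33206831, plus strand) was at 29.4, 27.0 and 33.8 CPM in NF1KO cells in BYL719, 24.3 and 23.9 CPM in NF1KO cells in DMSO, 21.2, 29.2 and 28.8 CPM in CTRL cells in BYL719, and 19.5, 26.9 and 27.0 CPM in CTRL cells in DMSO. Replicate 1 was the lowest library in both CTRL groups. The widest difference was 0.32 ± 0.16 on the log2 scale for BYL719 over DMSO in NF1KO cells, where the libraries did not overlap (edgeR adjusted p = 0.197). Without both CTRL libraries numbered 1, that same difference of 0.32 had an edgeR adjusted p of 0.0129. The gene 218 bases before it, SLC39A7, a zinc transporter, was lower in BYL719 in both lines, by -0.31 ± 0.06 in NF1KO cells and -0.37 ± 0.05 in CTRL cells (edgeR adjusted p = 0.0042 and 0.000175).

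Both sulfotransferases were lower in BYL719 than in DMSO in either line, and neither differed between the lines by the test. SULT1A1 (Entrez 6817, chr16:28605258-28623375, minus strand), which sulfates phenols and estrogens, was at 10.9, 10.7 and 12.0 CPM in NF1KO cells in BYL719, 13.9 and 13.3 CPM in NF1KO cells in DMSO, 9.47, 10.0 and 9.72 CPM in CTRL cells in BYL719, and 15.7, 15.1 and 14.9 CPM in CTRL cells in DMSO. Groups were separate in every comparison. BYL719 against DMSO gave a log2 fold change of -0.28 ± 0.08 in NF1KO cells (edgeR adjusted p = 0.0364) and -0.64 ± 0.07 in CTRL cells (edgeR adjusted p = 2.74e-05), and the difference of effects was 0.37 ± 0.11 (edgeR adjusted p = 0.0621). In BYL719 the difference between the lines was 0.20 ± 0.07 (edgeR adjusted p = 0.0508), close to the threshold. SULT1A1 belongs to a cluster of near-identical genes on the short arm of chromosome 16, between which reads can be split. SULT1A3 and SULT1A4 held the same counts in all 11 libraries, and SULT1A2 and SULT1A3 had 12.8% and 103% of the counts of SULT1A1. With the counts of SULT1A1, SULT1A2 and SULT1A3 summed, the 2 BYL719 changes were -0.40 ± 0.12 in NF1KO and -0.74 ± 0.11 in CTRL cells, and both passed (edgeR adjusted p = 0.0327 and 0.000138).

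SULT2B1 (Entrez 6820, chr19:48552172-48599427, plus strand), which sulfates cholesterol and other hydroxysteroids, was at 27.1, 27.4 and 30.2 CPM in NF1KO cells in BYL719, against 39.6 and 38.9 CPM in NF1KO cells in DMSO. In CTRL cells it was at 19.6, 26.4 and 28.9 CPM in BYL719 and at 28.2, 35.6 and 37.3 CPM in DMSO. Replicate 1 was the lowest in both CTRL groups, and its value in DMSO lay below that of replicate 3 in BYL719, so the groups overlapped. Log2 fold changes for BYL719 were -0.48 ± 0.15 in NF1KO cells (edgeR adjusted p = 0.0432) and -0.43 ± 0.13 in CTRL cells (edgeR adjusted p = 0.0209). In CTRL cells the change no longer passed without replicate 2 or replicate 3 of CTRL cells in DMSO (edgeR adjusted p = 0.0666 and 0.0739). Without both CTRL libraries numbered 1 it was -0.40 (edgeR adjusted p = 0.000856). Its neighbour RPL18, a ribosomal protein gene, was higher in BYL719 in CTRL cells, by 0.63 ± 0.17 (edgeR adjusted p = 0.012).

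CYP1B1, which hydroxylates estradiol to a catechol estrogen, had the same pattern as HSD17B12. CYP1B1 (Entrez 1545, chr2:38067509-38076151, minus strand) was at 175, 141 and 133 CPM in NF1KO cells in BYL719, 211 and 201 CPM in NF1KO cells in DMSO, 95.4, 92.0 and 86.9 CPM in CTRL cells in BYL719, and 155, 140 and 137 CPM in CTRL cells in DMSO. It was higher in NF1KO than in CTRL cells, by 0.51 ± 0.11 in DMSO (edgeR adjusted p = 0.00468) and 0.71 ± 0.10 in BYL719 (edgeR adjusted p = 9.36e-05) on the log2 scale. In DMSO the difference did not pass without replicate 2 of NF1KO cells in DMSO (edgeR adjusted p = 0.0576). BYL719 lowered it in both lines, by log2 fold changes of -0.46 ± 0.11 in NF1KO cells (edgeR adjusted p = 0.011) and -0.66 ± 0.10 in CTRL cells (edgeR adjusted p = 0.000174), and the libraries of the compared groups did not overlap. RMDN2, which ends 371 bases from CYP1B1, passed in none of the comparisons.

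**Figure D3:**
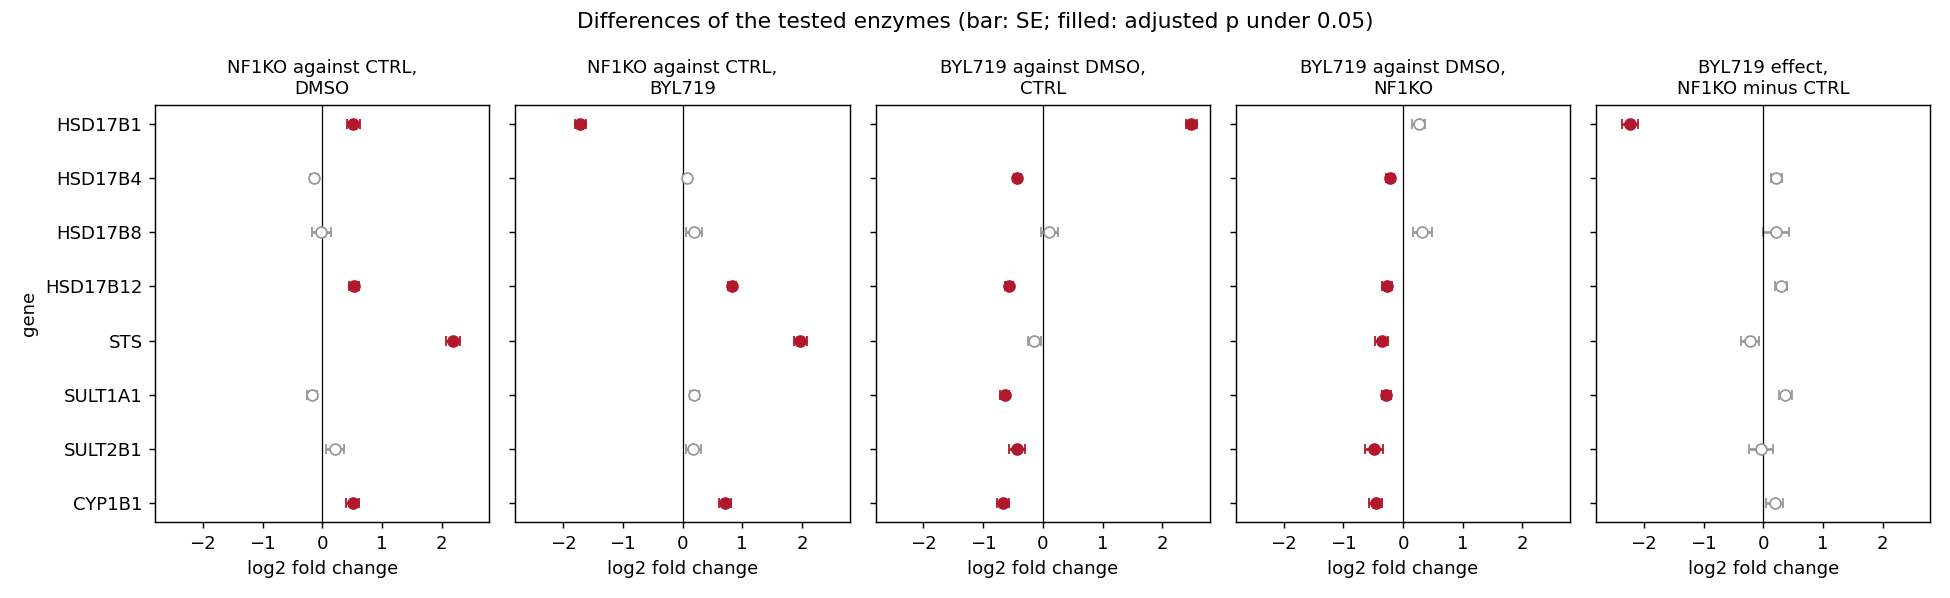
Log2 fold changes (horizontal axis; whiskers, SE) of the 8 tested enzymes in the 5 comparisons, with filled points for an adjusted p under 0.05. The filled points of 6 of the 8 genes lie below 0 for BYL719 over DMSO in NF1KO cells, and HSD17B1, at -2.23, is the filled point for the difference of effects.

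The calls for BYL719 in NF1KO cells rest on the 2 DMSO libraries of that line. Without replicate 2 of NF1KO cells in DMSO the edgeR adjusted p of the 6 enzymes ran from 0.0958 to 0.217, and without replicate 3 from 0.0677 to 0.243, all above the threshold. Of the 6, 2 passed without replicate 2 of CTRL cells in DMSO. Without replicate 1, 2 or 3 of NF1KO cells in BYL719, 3, 1 and 2 enzymes passed. STS alone was lost without replicate 3 of CTRL cells in DMSO (edgeR adjusted p = 0.0509), and SULT2B1 alone without replicate 2 of CTRL cells in BYL719 (edgeR adjusted p = 0.0537). Same-numbered CTRL libraries deviated together. With the number as a block within each line, 4345 of all tested genes differed between the lines in their BYL719 effect, against 1510 without the block. Of the enzymes, 5 did so. These were HSD17B1 (-2.29), STS (-0.34), HSD17B4 (0.23), HSD17B12 (0.28) and SULT1A1 (0.38), as log2 differences of NF1KO minus CTRL cells, with edgeR adjusted p between 7.44e-11 and 0.0224. In NF1KO cells the same block left HSD17B1 and HSD17B8 higher in BYL719, with log2 fold changes of 0.20 and 0.33 (edgeR adjusted p = 0.0482 and 0.00125).

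Of 11 other hydroxysteroid dehydrogenases of this type 9 were tested, and BYL719 left 5 of them lower and 1 higher in CTRL cells, against 21.8% and 22.6% of all tested genes. Those lower included HSD17B11, which acts on androgens and sits on lipid droplets, at -0.79 ± 0.16, HSD17B7, of estradiol and cholesterol synthesis, at -0.54 ± 0.08, and HSDL2, a peroxisomal relative, at -0.39 ± 0.06 (log2, edgeR adjusted p = 0.00148, 0.000216 and 0.000297). The 1 higher gene was AKR1C3, which makes testosterone and estradiol, at 0.68 ± 0.18 (edgeR adjusted p = 0.01). In NF1KO cells in BYL719, 5 of the 9 were higher than in CTRL cells, against 20.8% of all tested genes, and 3 of the 9 were without replicate 3 of either line in BYL719. The 5 were led by HSDL2 at 0.45 ± 0.06 (edgeR adjusted p = 9.9e-05) and HSD17B11 at 0.80 ± 0.16 (edgeR adjusted p = 0.00146). The medians of the 9 were -0.34 and 0.28 in these comparisons, and 0 for all tested genes in each. HSDL2 also differed between the lines in its BYL719 effect, by 0.45 ± 0.09 (edgeR adjusted p = 0.00968), although not without either replicate 2 or replicate 3 of NF1KO cells in DMSO (edgeR adjusted p = 0.0526 and 0.0565). With the replicate block within each line, 4 of the 9 differed so, and 4345 of all tested genes did, against 1510 without the block.

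Of 16 genes of upstream steroid synthesis, 8 had enough reads to be tested. CYP19A1, the aromatase that makes estrone from androstenedione, had at most 1 read in a library and was not tested. CYB5A, cytochrome b5, an electron donor to steroid-forming P450 enzymes, was at 33.8, 28.3 and 37.5 CPM in NF1KO cells in BYL719, 26.5 and 27.0 CPM in NF1KO cells in DMSO, 71.8, 92.8 and 81.5 CPM in CTRL cells in BYL719, and 30.7, 37.5 and 36.6 CPM in CTRL cells in DMSO. The CTRL libraries in BYL719 stood above all others, as they did for HSD17B1. BYL719 over DMSO was 1.23 ± 0.12 in CTRL cells (log2, edgeR adjusted p = 6.47e-06), and the difference of effects was -0.92 ± 0.18 (edgeR adjusted p = 0.0061). Over the list, 3 of 8 genes were higher and 2 lower in BYL719 in CTRL cells, against 22.6% and 21.8% of all tested genes. Without replicate 2 of CTRL cells in BYL719, 1 was higher, and with the replicate block within each line 4 were lower. That block raised the calls over all tested genes from 7132 to 10202 in either direction.

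Of the genes that serve sulfation and desulfation, 4 of 8 tested were higher and 2 lower in BYL719 than in DMSO in CTRL cells, against 22.6% and 21.8% of all tested genes, with SULT1A3 and SULT1A4 taken as 1 measurement. SUMF1, which activates sulfatases such as STS, was higher by 0.66 ± 0.09 (log2, edgeR adjusted p = 0.000121), and PAPSS1, a synthase of the sulfate donor, by 0.55 ± 0.08 (edgeR adjusted p = 0.000213). Neither moved in the direction of the sulfotransferases in those cells. In NF1KO cells in BYL719 PAPSS1 was below CTRL cells by -0.42 ± 0.08 (edgeR adjusted p = 0.00159). The high-affinity estrogen sulfotransferase SULT1E1 had too few reads to be tested.

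Among further genes of estrogen metabolism, 10 of 19 were tested. Of these, UGT1A1, UGT1A8, UGT1A9 and UGT1A10 held the same counts in every library, and UGT1A3 nearly the same, all under 1 CPM. These UGT1A rows are therefore not separate measurements. CYP1A2 and CYP1A1, the relatives of CYP1B1 that hydroxylate estrogens at another position, went the other way from CYP1B1 in CTRL cells. CYP1A2 was at 3.69, 3.29 and 2.68 CPM in CTRL cells in BYL719 and at 0.464, 0.510 and 0.594 CPM in CTRL cells in DMSO, a log2 fold change of 2.62 ± 0.20 (edgeR adjusted p = 8.43e-07), and CYP1A1 was higher by 1.14 ± 0.15 (edgeR adjusted p = 7.86e-05). In NF1KO cells CYP1A2 had 11, 17 and 15 reads in BYL719 and 3 and 2 reads in DMSO. It was below CTRL cells by -3.63 ± 0.22 in BYL719 (log2, edgeR adjusted p = 9.38e-08). Within NF1KO cells it was higher in BYL719 than in DMSO, by 2.44 ± 0.46 (edgeR adjusted p = 0.00418), on these few reads and not without replicate 3 of NF1KO cells in DMSO (edgeR adjusted p = 0.064). NQO1, which reduces estrogen quinones, was lower in BYL719 in both lines, by -0.83 ± 0.10 in NF1KO cells and -0.84 ± 0.09 in CTRL cells (edgeR adjusted p = 0.000342 and 1.97e-05).

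Of the aryl hydrocarbon receptor genes, all 6 of which were tested, 2 were higher in BYL719 in NF1KO cells and 3 in CTRL cells, against 10.3% and 22.6% of all tested genes. With the replicate block within each line 5 were higher in CTRL cells. That fit called 10202 of all tested genes in either direction, against 7132 without the block. ARNT2, a dimer partner of the receptor, was higher by 0.93 ± 0.12 in NF1KO cells and 1.17 ± 0.11 in CTRL cells (log2, edgeR adjusted p = 0.00057 and 4.1e-06). AHR itself was lower in NF1KO than in CTRL cells in BYL719, by -1.06 ± 0.14 (edgeR adjusted p = 7.52e-05). Among the transporters of steroid conjugates, 9 tested of 12, 3 were higher in NF1KO than in CTRL cells in DMSO, against 9.99% of all tested genes. Without replicate 3 of NF1KO cells in DMSO 1 of them passed, ABCC3. This exporter of conjugates was higher in NF1KO cells by 1.73 ± 0.19 in DMSO and 1.63 ± 0.17 in BYL719 (edgeR adjusted p = 3.7e-05 and 7.98e-06), and SLCO4A1, an uptake carrier, by 1.5 ± 0.16 in BYL719 (edgeR adjusted p = 1.08e-05).

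The receptor of the product, ESR1, was at 269, 251 and 239 CPM in NF1KO cells in BYL719, 181 and 181 CPM in NF1KO cells in DMSO, 351, 307 and 340 CPM in CTRL cells in BYL719, and 350, 299 and 319 CPM in CTRL cells in DMSO. It was lower in NF1KO than in CTRL cells, by -0.83 ± 0.09 in DMSO and -0.40 ± 0.08 in BYL719 (log2, edgeR adjusted p = 3.3e-05 and 0.00141). The line with the higher STS therefore had the lower ESR1 in both treatments. Within NF1KO cells ESR1 was higher in BYL719 than in DMSO, by 0.48 ± 0.09 (log2, edgeR adjusted p = 0.00327). The difference of effects was 0.44 ± 0.12 (edgeR adjusted p = 0.035). It did not pass without replicate 1 of CTRL cells in DMSO (edgeR adjusted p = 0.0661), nor without several other single libraries. Of the 8 receptor and coenzyme genes, 2 were higher and 3 lower in BYL719 than in DMSO in each line. Of all tested genes, 22.6% were higher and 21.8% lower in CTRL cells, and 10.3% and 8.47% in NF1KO cells. The counts in NF1KO cells rest on 2 DMSO libraries. H6PD, which makes NADPH in the endoplasmic reticulum, was higher in BYL719 by 0.72 ± 0.09 in NF1KO cells and 0.74 ± 0.08 in CTRL cells (log2, edgeR adjusted p = 0.000512 and 2.1e-05).

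**Figure D4:**
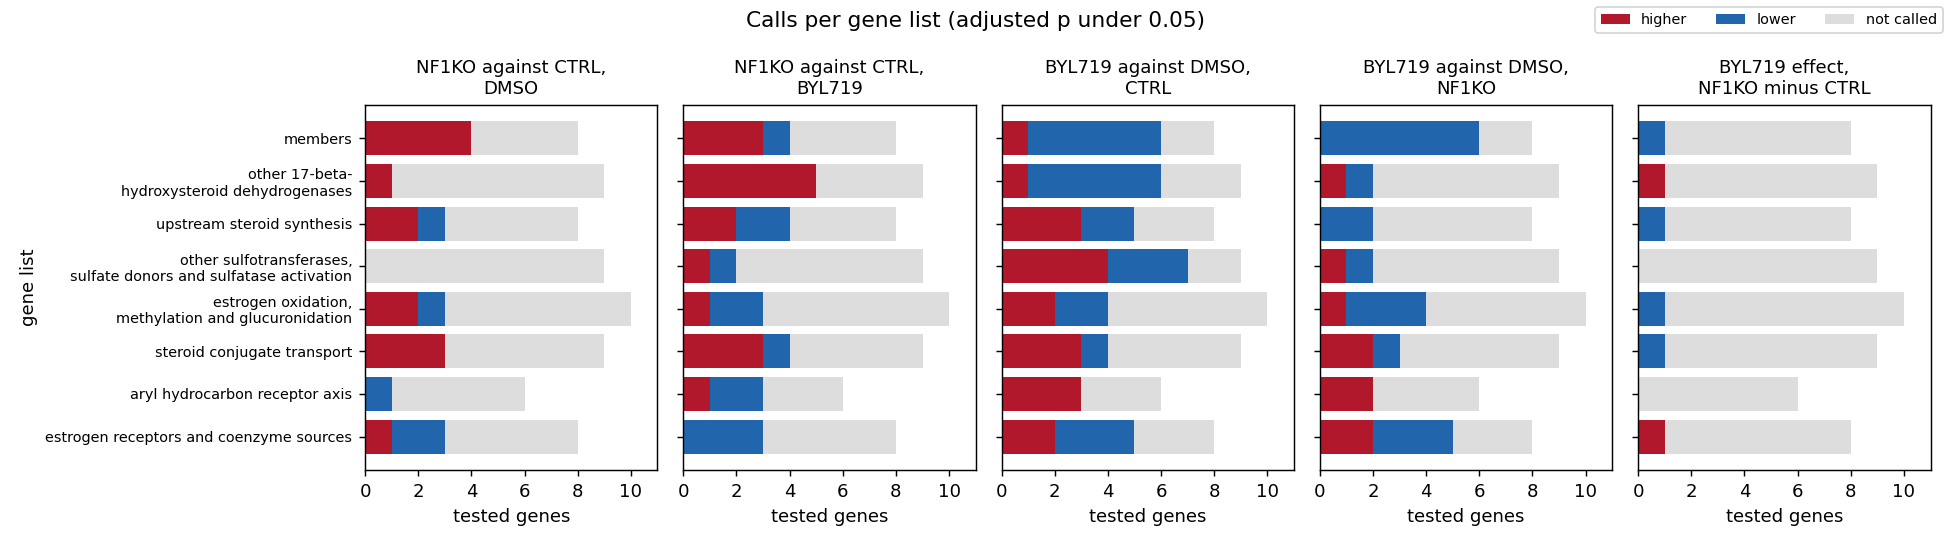
Number of tested genes (horizontal axis) called higher, lower or not called in each gene list (rows) in the 5 comparisons, at an adjusted p under 0.05. The row "members" is the set of 9 enzymes, of which 8 were tested. In CTRL cells, 5 of the 8 and 5 of the 9 other dehydrogenases were lower in BYL719 than in DMSO. SULT1A3 and SULT1A4, whose counts are the same, are drawn as separate genes. So are the tested UGT1A genes, whose counts are the same or nearly so.

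Across the 11 libraries, which share their line and treatment, some pairs of the enzymes ran together. As a description, HSD17B4 and SULT1A1 had a Pearson r of 0.97 and HSD17B12 and CYP1B1 one of 0.94, whereas HSD17B1 and SULT1A1 had -0.89 (log2 CPM, n = 11 libraries). Among all tested genes at 1 CPM or more, the profile closest to that of HSD17B1 was PREP (r = 0.989), followed by RASL11B (0.985) and SERINC4 (0.983). DUSP4 (0.992), a phosphatase of MAP kinases, LRP2 (0.991) and DRD1 (0.989) were closest to STS, and SLC1A4 (0.994) was closest to CYP1B1. HSD17B12 was closest to POC1B, SFXN1 and UAP1 (0.988 each). HSD17B4 was closest to RAB8A (0.989), SULT1A1 to NDUFS1 (0.988), SULT2B1 to STAP2 (0.987) and HSD17B8 to H3-3A (0.980).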

How the data were processed

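PolyA RNA of T47D cells was sequenced as 76-base single reads from a stranded kit, per the labels' protocols. Per the submitters' processing notes, the authors used STAR 2.5.2a, SAMtools 1.7, Picard 2.9.2 and edgeR with hg38. The counting tool, strand setting and annotation are not given in the sources used here. The deposited values are raw counts per gene, with no normalization by the authors. The table named 11 of the 12 labelled samples.

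Tests used edgeR 4.0.16 in R 4.3.3. Its filterByExpr left 16081 of 27864 genes, and TMM scaling and a quasi-likelihood fit on the 4 groups (7 residual degrees of freedom) gave 5 comparisons with 2-sided tests and Benjamini-Hochberg adjustment over all tested genes. SE is the log2 fold change divided by the root of F. The steps were tested on simulated data. Of 1.5-fold changes 26.9% (difference of effects) to 67.2% (BYL719 in CTRL cells) were recovered, and of 4-fold changes 90.9% to 97%. False calls made up 3.03% (BYL719 in CTRL cells) to 10.5% (NF1KO against CTRL cells in BYL719) of the calls. Each simulation changed 66 or 67 genes at each of 1.5-fold, 2-fold and 4-fold, and no others. That is far fewer than the data called, so these percentages need not hold for the data. The members and gene lists were chosen with earlier results of these data known. All 9 enzymes are named, up to 4 genes per list and comparison by adjusted p (mean at least 1 CPM), overlapping and neighbouring genes, and the 3 most alike profiles; the text gives some of these, and a few are not reported here. Positions, neighbours and promoters are from RefSeq (GRCh38.p14), in which 27740 of the table's gene IDs (99.6%) were found, and transcript lengths from GENCODE v29. Overlapping and neighbouring genes were taken among those with a mean of at least 1 CPM over all libraries. Motifs were searched as exact letters on both strands.

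Deviations from group means correlated at 0.59, 0.34 and 0.32 between same-numbered CTRL libraries in BYL719 and DMSO. The values were 0.08 and 0.15 in NF1KO cells and -0.12 to 0.15 across lines. Differently numbered CTRL libraries were at 0.23 and 0.18 between numbers 2 and 3, and at -0.42 to -0.36 where number 1 was involved. Same-numbered CTRL libraries thus deviated together, most clearly number 1. In NF1KO cells, 2 DMSO libraries are too few to show whether numbers pair. Each result was recomputed with upper-quartile or RLE scaling, unfiltered, with a floor of 1 CPM reached by 3 or more libraries, by limma-voom (limma 3.58.1) and by DESeq2 1.42.0, and with the replicate number as a block, that block within each genotype, only the compared libraries, and each library left out. Chosen after seeing the data were sums over overlapping or near-identical genes, and a fit that drops both CTRL libraries numbered 1. Figures were drawn with matplotlib 3.10.9 in Python 3.11.15.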

Additional observations from a re-analysis of the deposited data

Results flagged for a closer look

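The BYL719 effect on HSD17B1 differed between the lines by an interaction test. The effect in NF1KO cells minus that in CTRL cells was -2.23 ± 0.14 on the log2 scale (edgeR adjusted p = 1.24e-05, n = 11 libraries), with a change of 0.26 ± 0.11 in NF1KO cells and 2.49 ± 0.10 in CTRL cells. All 3 CTRL libraries in BYL719 exceeded every other library. Summed with the overlapping LOC108783654, the difference was -1.31 ± 0.14.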

How the results depend on the processing

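For the 8 tested enzymes, 775 of 831 recomputed values stayed on the same side of the threshold, 17 newly passed and 39 no longer passed. The sign changed in 6 of the 775, all values of HSD17B8 or SULT2B1 that passed in neither fit, and in no value that passed in either. Enzymes called between the lines in DMSO numbered 2 to 4 with a library left out, and all genes 1523 to 4256. For BYL719 in NF1KO cells the ranges were 0 to 6 enzymes and 788 to 3962 genes; all genes called were 4664 with the replicate block, 6744 with the block within each genotype and 5312 without both CTRL number-1 libraries. For the difference of effects, enzymes called were 2 without the filter (HSD17B1 and HSD17B2), 2 with DESeq2, 2 without both CTRL number-1 libraries, 4 with the replicate block and 5 with the block within each genotype; all genes called were 4345 with that nested block, 2411 without both CTRL number-1 libraries and 740 to 2155 with a library left out. The causes of these shifts were not tested, and fits with libraries left out also held fewer libraries. Leaving out a library of NF1KO cells in DMSO left a lone library, taken to vary as much as libraries of other groups do. SULT2B1 was also lost in NF1KO cells with upper-quartile scaling (edgeR adjusted p = 0.0522) and in CTRL cells with only the compared libraries (0.0622), and HSD17B4 and SULT1A1 were lost in NF1KO cells without the filter (0.0646 and 0.0652). The replicate block added SULT1A1 between the lines in BYL719 (0.0416) and HSD17B8 for BYL719 in NF1KO cells (0.0148), and in either form changed no call of an enzyme beyond these and those already given. Depth limits HSD17B2 alone among the 9 enzymes.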
